A study of Mus musculus with 9 samples.

Results

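The genes described here are Stat3, Socs3, Socs1, Socs2, Cebpb, Cebpd, Pim1 and Pim3, which respond to, or act in, the signalling of cytokines of the IL-6 type. The genes were chosen with earlier results of these data known, so their counts beside the shares of all probe sets are descriptions. Their probe sets were taken by gene symbol. Each probe set (a group of probes for 1 transcript) that the array's annotation gives to 1 of these 8 symbols alone was used. This made 11 probe sets out of 12422 that are not array controls. Stat3, Socs3 and Pim1 have 2 probe sets each and the other genes 1. RNA came from TtT/GF cells, a mouse line of folliculostellate cells, the non-hormonal support cells of the anterior pituitary. Of the 9 cultures, 3 were untreated, 3 were given 10 µM NECA (5'-N-ethylcarboxamidoadenosine, an analog of adenosine that activates its receptors) for 30 min and 3 were given it for 120 min, with 1 Affymetrix MG_U74A v2 array each. All cultures were grown in medium with 2% heat-inactivated serum, and the labels name neither a vehicle nor a time for the untreated cells, so handling and NECA cannot be told apart at either time. The labels number the cultures within a group but do not say what separates them, so the p-values measure the spread between these cultures.

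IL-6 and its relatives bind receptors that share the chain gp130 (Il6st) and so activate JAK kinases, which phosphorylate the transcription factor STAT3. STAT3 then induces its own gene and those of SOCS3, which blocks the receptor and its kinases, of the transcription factors C/EBPβ and C/EBPδ, and of the Pim serine/threonine kinases, which promote survival and growth. Several of these genes also respond to cAMP and to growth factors. Folliculostellate cells are a known source of IL-6 in the pituitary.

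Signals are given on the linear scale of the deposited table. Changes are differences of log2(signal + 7.93), here called log2 changes, with the standard error (SE) of the fit, and folds on this scale understate the change of genes with low signals. Adjusted p-values come from limma with Benjamini-Hochberg adjustment over the 7851 probe sets whose signal was above 20.5 in at least 3 of the 9 arrays, and a change passed at an adjusted p under 0.05. All 11 probe sets entered the test, but Socs3 92232_at did so only through the treated arrays, where it was high. Precision is limited by having 3 arrays in each group, and the smallest p that exact permutation can give for 3 against 3 is 0.1. Fewer cells and less RNA per cell cannot be told apart in such bulk RNA.

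The arrays of a group correlated across the tested probe sets at 0.947 to 0.978. The ratio of the Gapdh 3' to 5' probe sets, a sign of RNA integrity, was 0.964 to 1.02 in untreated, 0.879 to 0.955 at 30 min and 0.925 to 0.98 at 120 min. At 30 min the ratio did not overlap untreated (exact permutation p = 0.1), while at 120 min it did (p = 0.2). Fits with this ratio as a covariate therefore cannot fully separate it from the treatment at 30 min. A call lost in such a fit can reflect this. NECA 30 min replicate 3 had the highest signal of its group in 11 of the 11 member probe sets, against 43.3% of all tested probe sets. In the untreated arrays, 8 of 12 folliculostellate markers had a signal above 20.5 on all 3 arrays, among them Gja1, Anxa1, S100b and Gfap, while Vim, Fst and Sox2 were not tested and Il6 was low. Counted in the same way, 6 of 9 markers of hormone cells, 1 of 8 of endothelial cells (Eng) and 4 of 9 of macrophages and leukocytes (Cd68, Cd14, Lyz2 and Cd79a) were above it, and Ptprc, Itgam, Adgre1 and Cd3e did not pass the filter. The summed signal of the folliculostellate markers was 5159 to 5637 in untreated, 5248 to 5632 at 30 min and 5898 to 6600 at 120 min, where it did not overlap untreated. Without Il6 and Vegfa, left out after the data were seen, it was 5122 to 5599, 5107 to 5491 and 5527 to 6108. The sums were 351 to 392, 293 to 346 and 240 to 368 for hormone cells, 566 to 704, 605 to 763 and 579 to 671 for endothelial cells, and 898 to 912, 939 to 1118 and 931 to 1198 for leukocytes. The sum for hormone cells at 30 min and that for leukocytes at both times also did not overlap untreated. The part of these shifts in the results was not tested.

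**Figure D1:**
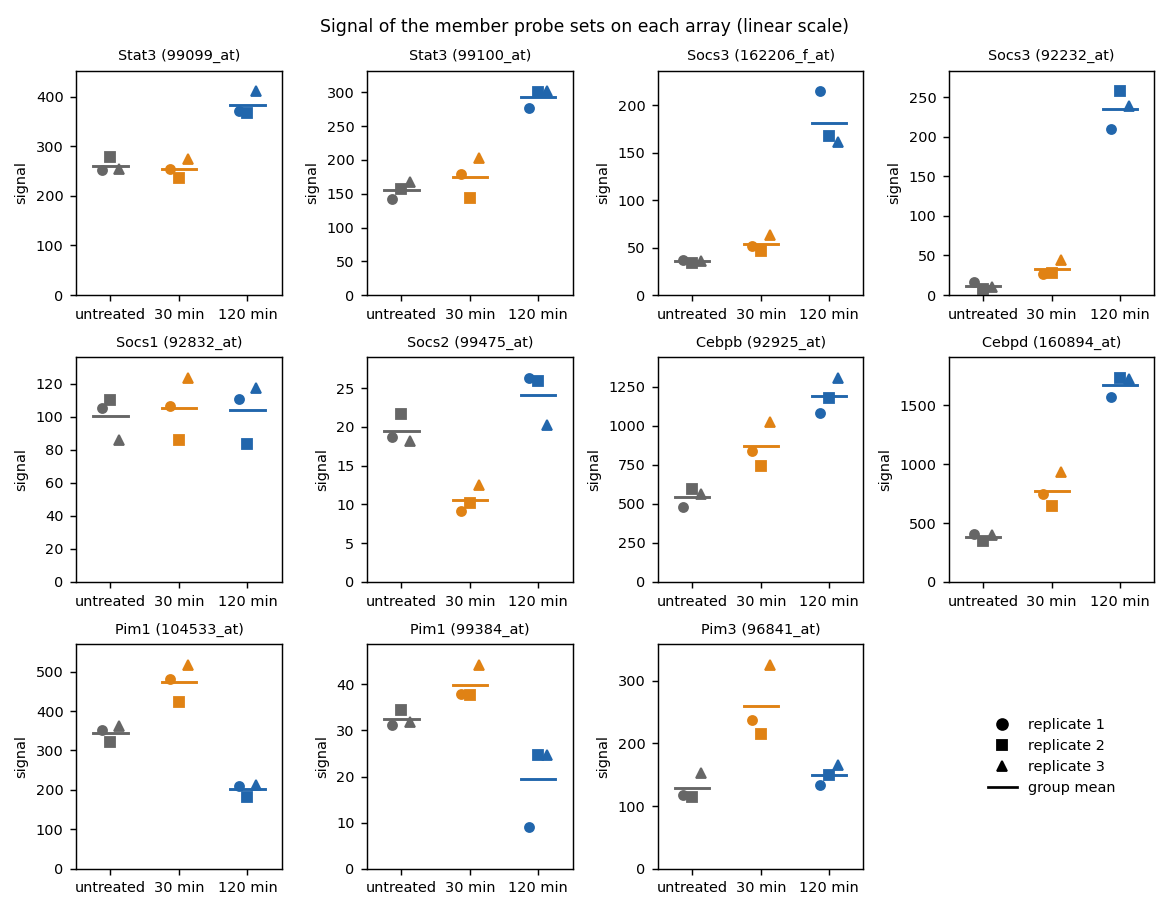
Signal of the 11 probe sets of Stat3, Socs3, Socs1, Socs2, Cebpb, Cebpd, Pim1 and Pim3 on each array, on a linear axis from 0 in each panel, with 3 arrays per group (circle, square and triangle for replicates 1, 2 and 3) and the group mean as a bar. Cebpd climbs from 346 to 403 in untreated cells to 1569 to 1733 at 120 min, Pim3 is highest at 30 min, and the groups of Socs1 overlap.

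After 30 min of NECA, 2 of the 11 probe sets were higher than in untreated cells, those of Cebpd and Pim3, each close to 2-fold. By limma 0 were lower and 9 did not pass. Among all tested probe sets 0.357% were higher and 0% lower at this time. At an unadjusted p under 0.05, 6 of the 11 were higher and 1, that of Socs2, was lower. At this threshold 3.87% of all tested probe sets were higher and 4.7% lower. The 3 treated arrays lay above the 3 untreated arrays in 7 of the 11, where 6.11% of all tested probe sets did so, and below them in 1, where 8.65% did. The count of 2 higher was 0 without untreated replicate 2, 4 without NECA 30 min replicate 2, and 1 without NECA 30 min replicate 1 or 3 or any 120 min array. Without NECA 30 min replicate 3 the change was 0.85 for Cebpd (adjusted p = 0.0148), which still passed. Without it, the changes of Pim3 (0.79), Socs3 92232_at (0.90) and 162206_f_at (0.39), Cebpb (0.53), Pim1 104533_at (0.38) and 99384_at (0.18), Stat3 99099_at (-0.090) and 99100_at (0.042), Socs1 (-0.058) and Socs2 (-0.64) did not pass (adjusted p from 0.114). The median log2 change was 0.44 over the 11 and -0.037 over all tested probe sets.

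After 120 min, 6 of the 11 probe sets, for Stat3, Socs3, Cebpb and Cebpd, were higher than in untreated cells, 1 of Pim1 was lower and 4 did not pass. The background was 1.83% higher and 1.54% lower. The treated arrays lay above the untreated ones in 6 of the 11 and below them in 2, against 12.3% and 13% of all tested probe sets. The median log2 change was 0.54, and over all tested probe sets it was -0.043. The moderated F-test over the 3 groups passed for 8 of the 11 probe sets and 3.1% of all, leaving out those of Socs1, Socs2 and 99384_at of Pim1.

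The arrays at 120 min were also compared with those at 30 min, which tests whether the effects at the 2 times differ, since both were measured against the same untreated arrays. Here 5 of the 11 were higher at 120 min, the probe sets of Stat3, Socs3 and Cebpd, and 2 were lower, those of Pim1 (104533_at) and Pim3. Of all tested probe sets 1.35% were higher and 1.62% lower. The 5 higher became 3 without NECA 120 min replicate 2 or 3, and the 2 lower became 1, that of Pim1, without any 1 of 7 arrays, as given for Pim3 below.

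**Figure D2:**
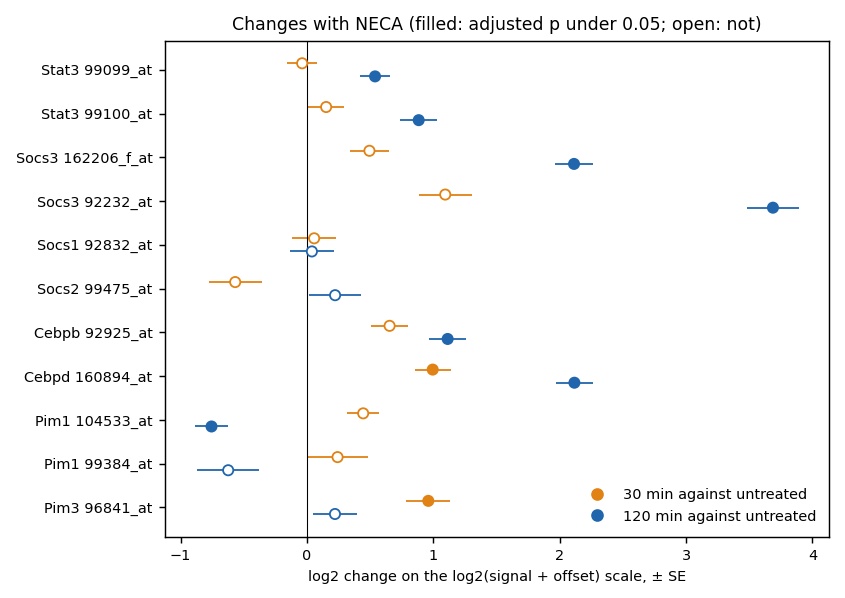
Log2 change of each of the 11 probe sets after 30 min (orange) and 120 min (blue) of NECA against untreated cells, on the log2(signal + offset) scale with the SE of the limma fit as bars. Filled points passed at an adjusted p under 0.05. The changes at 120 min run from -0.76 for Pim1 104533_at to 3.69 for Socs3 92232_at, and both comparisons share the untreated arrays.

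Stat3, the gene of the transcription factor itself, was near its untreated level at 30 min and higher at 120 min by both of its probe sets. Probe set 99099_at read 252, 278 and 254 in untreated cells, 254, 235 and 273 at 30 min and 370, 367 and 411 at 120 min. Probe set 99100_at read 142, 157 and 168, then 179, 143 and 203, then 277, 301 and 302. In both, the 120 min arrays stood above all others, while the 30 min and untreated arrays overlapped.

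At 120 min the log2 change was 0.54 ± 0.12 for 99099_at (adjusted p = 0.0307) and 0.88 ± 0.14 for 99100_at (adjusted p = 0.00416), folds of 1.45 and 1.85 on the offset scale. At 30 min the changes were -0.038 ± 0.12 and 0.15 ± 0.14, with 95% intervals of -0.30 to 0.22 and -0.16 to 0.47 (adjusted p = 0.913 and 0.713). Between the times both rose, by 0.58 and 0.73 (adjusted p = 0.0222 and 0.016). The rise of 99099_at at 120 min did not pass without any 1 of 7 arrays, all but NECA 30 min replicates 2 and 3 (highest adjusted p = 0.142), nor with the Gapdh ratio as a covariate (0.51, adjusted p = 0.166), while that of 99100_at passed without each array (highest 0.0312). Between the times, 99099_at did not pass without NECA 30 min replicate 1 or any 120 min array (highest 0.106) and 99100_at without NECA 120 min replicate 2 or 3 (highest 0.0706), and neither passed in a fit of just the 2 groups compared (0.0871 and 0.0518).

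The stretch from 250 bases before to 50 bases after the annotated start was available from RefSeq (build GRCm38.p6) for 6 of the 8 genes, in 7 windows. Each was searched on both strands for a STAT type motif, TTCNNNGAA, the full cAMP response element (CRE), TGACGTCA, its core, TGACG, which the full element contains, and a C/EBP type motif, TTNNGNAAT. These occurred in 8.3%, 1.79%, 20.8% and 11.5% of all 32851 promoter windows. The windows of Stat3, Socs3 and Cebpb each held 1 kind of motif, a different one in each, and the windows of Socs1, Pim1 and Pim3 held no match. The share of all windows with any of these motifs was not computed, and a link between matches and changes was not tested. A match describes the letters and is no evidence that a factor binds. The Stat3 window, shown with its C/EBP type match in capitals, lies on the minus strand at chr11:100939491-100939790. The match starts 7 bases before the start and reads on the opposite strand.
Stat3: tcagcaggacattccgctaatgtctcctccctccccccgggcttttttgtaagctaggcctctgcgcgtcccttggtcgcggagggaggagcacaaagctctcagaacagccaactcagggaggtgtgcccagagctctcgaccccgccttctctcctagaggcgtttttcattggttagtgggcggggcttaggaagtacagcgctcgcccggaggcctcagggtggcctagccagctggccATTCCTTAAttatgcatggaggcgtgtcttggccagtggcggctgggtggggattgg

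Of the 3 genes of the SOCS family, which encode proteins that bind cytokine receptors or their JAK kinases and end the signal, Socs3 rose strongly at 120 min while Socs1 and Socs2 did not pass in any of the 3 comparisons. Socs3 92232_at read 16, 7.46 and 10.1 in untreated cells, 27.1, 27.2 and 44.7 at 30 min and 209, 258 and 238 at 120 min. The second Socs3 probe set, 162206_f_at, read 37, 33.8 and 35.9, then 52.1, 46 and 63.2, then 215, 168 and 162. In both, the 3 groups were separate and in the same order, lowest in untreated and highest at 120 min.

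At 120 min Socs3 rose by 3.69 ± 0.21 in 92232_at (adjusted p = 6.37e-07), 12.9-fold on the offset scale, and by 2.11 ± 0.15 in 162206_f_at (adjusted p = 4.94e-06), 4.33-fold. The size for 92232_at depends on the offset, since its untreated signals lie under the filter: the change was 4.33 with an offset of 1 and 2.63 with 32. At 30 min the changes were 1.09 ± 0.21 (adjusted p = 0.0592) and 0.49 ± 0.15 (adjusted p = 0.471) and did not pass. The former passed with an offset of 1 (1.50, adjusted p = 0.042), with quantile normalization (0.0438) or median centring (0.0429), and without untreated replicate 1 (0.0373) or NECA 30 min replicate 2 (0.0376). From 30 to 120 min both rose, by 2.59 and 1.62 (adjusted p = 1.56e-05 and 6.04e-05). The 2 probe sets differed in size: 162206_f_at changed by 1.57 ± 0.26 (SE) less than 92232_at at 120 min, with no overlap between the groups (exact permutation p = 0.1, the smallest possible). With an offset of 32 this gap was 0.98 and with 1 it was 2.02. On this array design the suffix f marks a probe set whose probes may match more than 1 related sequence.

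The Socs3 window, on the minus strand at chr11:117969317-117969616, held 1 STAT type match, in capitals, which starts 154 bases before the start.
Socs3: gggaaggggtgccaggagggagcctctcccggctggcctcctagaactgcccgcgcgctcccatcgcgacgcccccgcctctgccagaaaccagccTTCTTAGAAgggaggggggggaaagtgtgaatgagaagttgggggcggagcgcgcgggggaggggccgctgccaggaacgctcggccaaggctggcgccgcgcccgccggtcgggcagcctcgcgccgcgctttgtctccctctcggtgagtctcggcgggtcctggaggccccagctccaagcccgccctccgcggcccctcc

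Socs1 (92832_at) read 105, 110 and 85.7 in untreated cells, 106, 85.9 and 123 at 30 min and 111, 83.5 and 117 at 120 min, and all groups overlapped. Its log2 change was 0.057 ± 0.17 at 30 min and 0.039 ± 0.17 at 120 min (adjusted p = 0.911 and 0.937), with 95% intervals of -0.32 to 0.43 and -0.34 to 0.41. Its sign turned with the Gapdh ratio as a covariate (-0.25 and -0.16). Socs2 (99475_at), known as a brake on growth hormone signalling, read 18.7, 21.7 and 18.2, then 9.15, 10.2 and 12.5, then 26.3, 25.9 and 20.3, around the level of the filter. Its 30 min arrays were below all others, and the untreated and 120 min arrays overlapped. The change of Socs2 was -0.57 ± 0.21 at 30 min (adjusted p = 0.552), 0.22 ± 0.21 at 120 min (adjusted p = 0.631) and 0.79 ± 0.21 from 30 to 120 min (adjusted p = 0.0767), the last of which passed without the intensity trend in the prior variance (adjusted p = 0.0101).

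To compare related genes, the difference of their log2 values was taken on each array, and its change was tested between groups for 10 pairs of probe sets in 3 comparisons each, 30 exact permutation tests in all. At 120 min against untreated, Socs3 changed by 3.65 ± 0.30 (SE) more than Socs1 in 92232_at and by 2.07 ± 0.20 more in 162206_f_at. Against Socs2 the differences were 3.46 ± 0.27 and 1.89 ± 0.13. In each of these 4 the arrays of the groups did not overlap (exact p = 0.1, adjusted over the 30 tests 0.12). This misses the threshold because no smaller p was possible. At 120 min the probe sets of 1 gene also differed without overlap for Socs3, as given above, and for Stat3 (-0.35 ± 0.087 for 99099_at minus 99100_at). Those of Pim1 overlapped (exact p = 0.9). A lack of overlap thus does not set these 4 apart, and the part of the probes in such differences was not tested. With an offset of 32 the differences of Socs3 from Socs1 were 2.60 and 1.62.

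**Figure D3:**
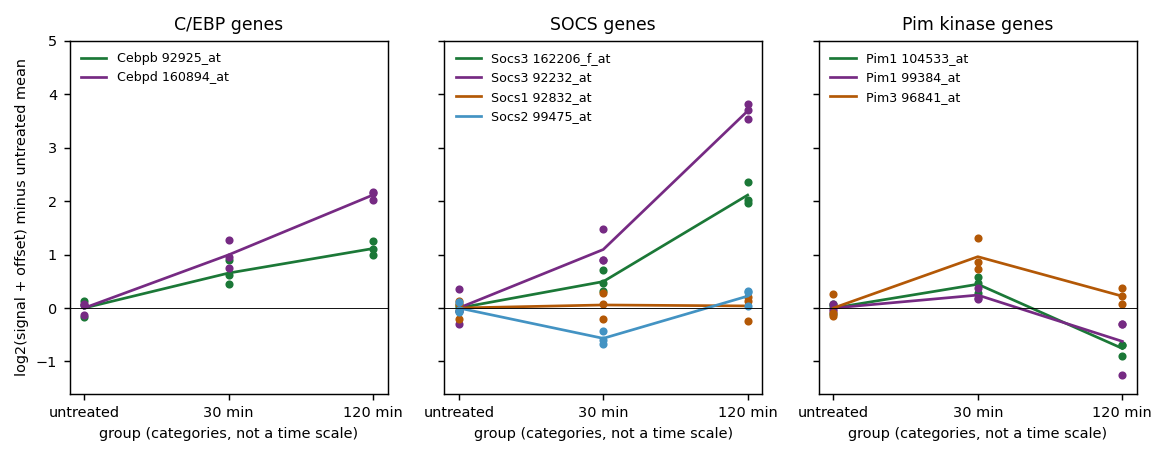
Log2(signal + offset) of each array minus the mean of the untreated arrays, for the C/EBP, SOCS and Pim genes, with 3 points per group and a line through the group means. The groups are categories and not a time scale. Cebpd and Cebpb part at 120 min (2.12 and 1.11), Socs3 leaves Socs1 and Socs2, and the means of Pim1 and Pim3 are highest at 30 min, where Pim3 passed against untreated and Pim1 did not.

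The C/EBP genes among the members, Cebpd and Cebpb, were higher at 120 min, with the larger log2 change in the probe set of Cebpd. Both encode basic leucine zipper transcription factors of the acute phase response, and C/EBPβ was first known as a nuclear factor of IL-6. Cebpd (160894_at) read 403, 346 and 395 in untreated cells, 748, 642 and 935 at 30 min and 1569, 1733 and 1726 at 120 min. Cebpb (92925_at) read 482, 593 and 563, then 838, 742 and 1024, then 1084, 1177 and 1306. For both genes the 3 groups were separate and in the same order.

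Cebpd rose by 0.99 ± 0.14 at 30 min (adjusted p = 0.00939) and by 2.12 ± 0.14 at 120 min (adjusted p = 2.67e-06), folds of 1.99 and 4.33, and by 1.12 between the times (adjusted p = 0.000739). Its 30 min rise did not pass without untreated replicate 2 (0.93, adjusted p = 0.074), in a fit of just the 2 groups compared (0.0514) or with the Gapdh ratio as a covariate (0.80, adjusted p = 0.909). Cebpb rose by 1.11 ± 0.14 at 120 min (adjusted p = 0.000773), 2.16-fold. Its change was 0.65 ± 0.14 at 30 min (adjusted p = 0.142) and 0.46 ± 0.14 from 30 to 120 min (adjusted p = 0.163), neither of which passed. The former passed without NECA 30 min replicate 2 (0.76, adjusted p = 0.0351) and the latter without NECA 30 min replicate 3 (0.58, adjusted p = 0.0464). Cebpd changed by 1.00 ± 0.16 (SE) more than Cebpb at 120 min and by 0.34 ± 0.15 more at 30 min, in both cases with no overlap (exact p = 0.1, adjusted 0.12). The probe sets of Socs3, 1 gene, also differed at 120 min, by -1.57 for 162206_f_at minus 92232_at. The part of the probes in the difference between Cebpd and Cebpb was not tested.

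The Cebpb window, on the plus strand at chr2:167688665-167688964, held 3 CRE cores, in capitals, which start 180, 53 and 7 bases before the start, the first of them on the opposite strand, and no full element. No window was printed for Cebpd.
Cebpb: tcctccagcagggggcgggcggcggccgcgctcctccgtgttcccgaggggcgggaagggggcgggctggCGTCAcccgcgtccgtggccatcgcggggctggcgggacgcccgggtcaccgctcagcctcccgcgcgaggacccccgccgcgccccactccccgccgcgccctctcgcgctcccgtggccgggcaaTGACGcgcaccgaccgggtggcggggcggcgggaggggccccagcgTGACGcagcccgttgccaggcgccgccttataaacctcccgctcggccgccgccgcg

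The Pim kinase genes among the members, Pim1 and Pim3, had another time course, with their highest mean signals at 30 min and lower ones at 120 min. At 30 min Pim3 passed against untreated and Pim1 did not. Pim2, which is not a member, stood at -0.034 at 30 min and 0.024 at 120 min (adjusted p = 0.945 and 0.963). Pim3 (96841_at) read 118, 114 and 153 in untreated cells, 237, 215 and 325 at 30 min and 134, 150 and 166 at 120 min. Its 30 min arrays stood above all others, and the untreated and 120 min arrays overlapped. Pim1 104533_at read 352, 320 and 363, then 481, 422 and 517, then 210, 182 and 211, so that the 30 min arrays were above and the 120 min arrays below all untreated ones. Pim1 99384_at, at 31.2, 34.4 and 31.8, then 37.8, 37.7 and 44.3, then 8.97, 24.7 and 24.8, had the same order of groups, with 120 min replicate 1 far below its fellows.

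Pim3 rose by 0.96 ± 0.18 at 30 min (adjusted p = 0.0436), 1.95-fold, and fell by 0.74 on the log2 scale from 30 to 120 min (adjusted p = 0.0443). At 120 min against untreated it stood at 0.22 ± 0.18 (adjusted p = 0.562), with a 95% interval of -0.16 to 0.60. Both calls lay close to the threshold and were lost without any 1 of 7 arrays, all but untreated replicate 3 and NECA 30 min replicate 2 (highest adjusted p = 0.284 and 0.177). Without NECA 30 min replicate 3 the rise was 0.79 (adjusted p = 0.114). With the Gapdh ratio as a covariate the 2 changes were 0.78 and -0.68 (adjusted p = 0.996 and 0.141).

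Pim1 104533_at fell by 0.76 at 120 min against untreated (SE 0.13, adjusted p = 0.0055) and by 1.20 from 30 to 120 min (SE 0.13, adjusted p = 0.000173), and both calls held without each array (highest adjusted p = 0.0356 and 0.00156). Its change at 30 min, 0.44 ± 0.13, did not pass (adjusted p = 0.4). Probe set 99384_at stood at 0.24 ± 0.24 at 30 min, -0.62 ± 0.24 at 120 min and -0.87 ± 0.24 from 30 to 120 min, without passing (adjusted p = 0.728, 0.241 and 0.105). The change of Pim1 104533_at was below that of Pim3 by 0.52 ± 0.14 (SE) at 30 min and 0.98 ± 0.14 at 120 min, with no overlap between the groups (exact p = 0.1, adjusted 0.12).

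The other genes of the pathway were described by lists of ligands, receptors and kinases, other STAT factors, inhibitors, other C/EBP and Pim genes, and genes known to respond to STAT3 or IL-6, with the probe set of highest mean signal for each gene. Among the ligands Il6 rose at both times, from a mean signal of 2.21 in untreated cells, under the filter, to 67.5 at 30 min and 329 at 120 min (log2 changes of 2.85 ± 0.22 and 5.04 ± 0.22, adjusted p = 0.000136 and 1.16e-07). It entered the test only through the treated arrays, and the size depends on the offset: the changes were 4.41 and 6.72 with an offset of 1 and 1.51 and 3.38 with 32. The cardiotrophin gene Ctf1 was at -0.38 at 120 min (adjusted p = 0.217), and Il11 was below the filter. Of 8 tested genes for receptor chains and JAK kinases, 0 rose and 2 fell at 120 min by limma, and none passed at 30 min. Among all tested probe sets 1.83% were higher and 1.54% lower at 120 min, and 0.357% and 0% at 30 min. Il6ra, which encodes the IL-6 binding chain, went from 82.7 ± 8.86 to 51.9 ± 5.71 (SD, n = 3 each), a log2 change of -0.60 ± 0.14 (adjusted p = 0.0375). Lifr, the chain for leukaemia inhibitory factor, went from 85.4 ± 12.3 to 35.9 ± 5.89 (SD, n = 3 each), a log2 change of -1.09 ± 0.24 (adjusted p = 0.0259). Of its other probe sets, 104658_at stood at -0.042 (adjusted p = 0.937), and 104657_at, 104659_g_at and 97006_s_at did not pass the filter.

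These 2 calls were unstable. Il6ra did not pass without any 1 of 7 arrays, all but NECA 30 min replicates 2 and 3 (highest adjusted p = 0.159), nor with quantile normalization (-0.53, adjusted p = 0.0631), and Lifr did not pass without any untreated array or NECA 120 min replicate 2 or 3 (highest 0.125). The signal-transducing chain Il6st stood at 0.58 ± 0.19 (adjusted p = 0.157) and, in 98349_at, 0.60 (adjusted p = 0.0664). Jak1, Jak2, Jak3 and Tyk2 lay between -0.14 and 0.21 at 120 min, with adjusted p-values from 0.674.

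Among 3 tested STAT genes, Stat5a, Stat5b and Stat6, 0 passed at either time by limma, and at 120 min they lay between -0.086 and 0.15. The second Stat5a probe set, 100423_f_at, stood at 0.26 (adjusted p = 0.38). Among 7 other inhibitors 1 rose at 120 min, where 1.83% of all tested probe sets did so. Ptpn1, which encodes the phosphatase PTP1B that acts on JAK kinases, rose by 1.20 ± 0.16 from 175 ± 24.2 to 411 ± 33.1 (SD, n = 3 each, adjusted p = 0.00104). The others, Cish, Socs5, Pias1, Pias2, Pias3 and Ptpn2, lay between -0.34 and -0.0026. Further probe sets of Pias3 stood at 0.13 (160615_at, adjusted p = 0.745) and -0.60 (161994_f_at, adjusted p = 0.099). Among 4 other C/EBP and Pim genes 1 fell at 120 min against untreated, where 1.54% of all tested probe sets did so. Ddit3, the stress-induced C/EBP homologous protein, fell by 0.73 on the log2 scale (adjusted p = 0.0261), and Cebpa, Cebpg and Pim2 did not pass against untreated. From 30 to 120 min 2 of these 4 were lower, where 1.62% of all tested probe sets were. They were Ddit3 (-1.12, adjusted p = 0.00143) and Cebpg (-0.75, adjusted p = 0.016), which is named here after its values were seen. At 120 min against untreated the call of Ddit3 was lost without any untreated array or NECA 120 min replicate 1 or 2 (highest 0.0966). It was also lost with median centring (-0.68, adjusted p = 0.0532). From 30 to 120 min the call of Ddit3 held without each array (highest adjusted p = 0.00978).

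Of 23 tested genes known to respond to STAT3 or IL-6, 3 rose, 3 fell and 17 did not pass at 120 min, and 3 rose and 20 did not pass at 30 min. The shares of all tested probe sets were 1.83% higher and 1.54% lower at 120 min, and 0.357% and 0% at 30 min. The list's median log2 change was 0.082 at 120 min, against -0.043 for all tested probe sets. The rises at 120 min were in Bcl3, an IkB protein (3.20, adjusted p = 6.04e-06), the angiogenic factor gene Vegfa (1.13, adjusted p = 0.00599) and Il4ra, the IL-4 receptor chain (0.72, adjusted p = 0.0365). The falls were in 3 genes of early growth responses, Fos (-3.41), Myc (-1.25) and Junb (-0.95), with adjusted p-values of 1.16e-07, 0.000152 and 0.00835. At 30 min Bcl3 (1.63), Fos (1.42) and Junb (1.11) rose, but Junb did not pass when untreated replicate 1, untreated replicate 2 or NECA 30 min replicate 3 was left out (highest 0.0971), and Il4ra at 120 min passed only without NECA 30 min replicate 2 or 3 or NECA 120 min replicate 1 (highest adjusted p = 0.15 without the others). With the Gapdh ratio as a covariate Fos, Bcl3 and Junb at 30 min and Junb, Vegfa and Il4ra at 120 min did not pass. The acute phase genes Saa3, Lcn2, Hp and Lbp stood between 0.21 and 0.30 at 120 min without passing (adjusted p from 0.35). The second Lcn2 probe set, 161684_r_at, stood at -0.49 (adjusted p = 0.3). Serpina3n stood at 0.40 and the ceruloplasmin gene Cp at -0.87 (adjusted p = 0.474 and 0.053), and Fga, Fgb, Fgg and A2m were below the filter. The other tested genes of the list that did not pass at 120 min ran from -0.45 for Mcl1 to 0.93 for Il1r1 (adjusted p = 0.433 and 0.0622).

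**Figure D4:**
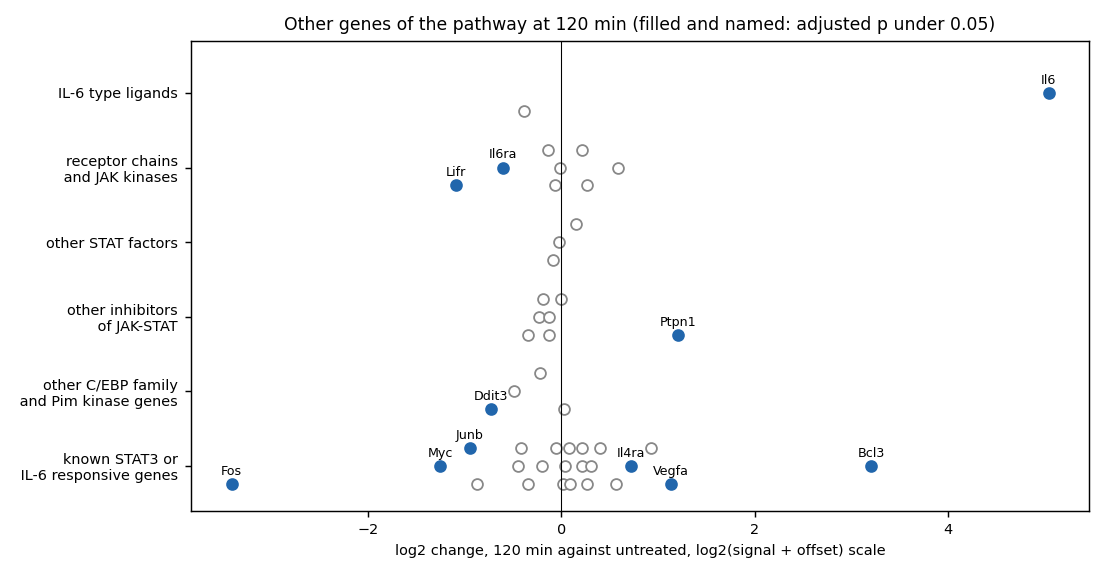
Log2 change at 120 min of NECA against untreated cells, on the log2(signal + offset) scale, for the tested genes of 6 pathway lists, 1 probe set per gene, with vertical offsets only to separate the points. Filled and named points passed at an adjusted p under 0.05, from Fos at -3.41 to Il6 at 5.04.

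For the 8 member probe sets that passed the F-test, the genes with the most similar values were found among the tested probe sets with 1 symbol other than the member's own (7039 or 7040) by Euclidean distance over the 9 arrays, with each gene's log2 values set relative to its untreated mean. Nearest to Cebpd were Odc1, of polyamine synthesis, at a distance of 0.43, the triglyceride synthesis gene Dgat1 (0.45) and Procr, the protein C receptor gene (0.58). Procr (0.62), Inhba, the activin A subunit gene (0.74), and Dgat1 (0.79) were also nearest to Socs3 162206_f_at. The length of the pattern itself was 4.07 for Cebpd and 3.78 for this Socs3 probe set. For Socs3 92232_at the nearest were Bcl3, Rgs2 and Ramp3, at 1.71, 1.75 and 1.99, with a pattern length of 6.70. Distances depend on the size of the change, so they cannot be compared between members. The pattern length was 0.96 for Stat3 99099_at, for example.

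Nearest to Cebpb were Vegfa (0.43), Polr2i (0.44) and Tubb2a (0.50). Nearest to Stat3 99100_at were Nfya (0.36), Il4ra (0.37) and Tubb3 (0.37), and to 99099_at Lrp10 (0.39), Ywhag (0.40) and Xdh (0.41). The changes of Lrp10, Ywhag and Xdh at 120 min were between 0.46 and 0.49 and did not pass. Pim1 104533_at was nearest to Klf3 (0.43), Ddit3 (0.44) and Adm, the adrenomedullin gene (0.49), which fell at 120 min by 0.81, 0.73 and 0.81 on the log2 scale (adjusted p = 0.0167, 0.0261 and 0.017). Pim3 was nearest to Epha2 (0.48), Chmp6 (0.61) and Mtmr14 (0.66), whose changes at 30 min, 0.83, 0.70 and 1.03, did not pass (adjusted p = 0.104, 0.422 and 0.222).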

How the data were processed

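Expression was measured on 9 arrays in 3 groups, which were taken from the sample titles. The authors' deposited values give every probe set an intensity, unlogged, on each array, which MAS5 produced per the submitters' processing notes (its version is not given in the sources used here). The 2% trimmed mean was 100.056 to 100.065 on all arrays, so no further scaling was applied. The median signal was 36.4 to 38.4 in untreated, 34.1 to 35.9 at 30 min and 33.2 to 36.4 at 120 min. Against untreated the exact permutation p was 0.1 at 30 min and 0.2 at 120 min. Detection calls were not used here. Genes were named from GEO's platform annotation, which can be old.

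Signals were turned into log2(signal + 7.93), the offset being the 25th percentile of all values. Probe sets above 20.5, the 40th percentile, in at least 3 arrays were tested (7851 of 12422). limma 3.58.1 in R 4.3.3 fitted a mean per group on all 9 arrays, with eBayes and an intensity trend. Tests were two-sided, adjusted by Benjamini-Hochberg per comparison. The test was checked on data made with known answers. Single values were compared with exact permutation tests (Python 3.11.15). 95% intervals come from the limma fit.

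The members, the pathway and marker lists and the motifs were chosen with earlier results of these data known. By rule, every member is named by all probe sets, and so are up to 6 genes per pathway list that passed against untreated and the 3 genes nearest to each member that passed the F-test. List genes that did not pass or were not tested, such as Ctf1, Il11, Il6st, the JAK kinases and the acute phase genes, are named beyond this rule. Alternatives were 2 other offsets (1 and 32), no filter or a stricter one (60th percentile), quantile normalization, median centring, no trend, only the compared groups, a replicate block, a covariate (the Gapdh ratio 3' to 5'), and leaving out each array. The replicate numbers are not known to pair the cultures.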

Additional observations from a re-analysis of the deposited data

Results flagged for a closer look

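The change after 120 min differed from that after 30 min, by the limma test of the arrays at 120 min against those at 30 min, in 7 probe sets. The difference on the log2 scale, 120 min minus 30 min, was 0.58 for Stat3 99099_at, 0.73 for Stat3 99100_at, 1.62 for Socs3 162206_f_at, 2.59 for Socs3 92232_at and 1.12 for Cebpd 160894_at, where the later change was higher. It was -1.20 for Pim1 104533_at and -0.74 for Pim3 96841_at, where the later change was lower. The groups of 3 arrays are too small for a test of single outlying arrays.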

How the results depend on the processing

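Of 33 changes of the member probe sets (11 in 3 comparisons), 19 kept their direction and their side of the threshold under all alternatives that gave a value. Socs2 99475_at fell under the filter without 3 of the arrays and had no value there. At 120 min against untreated the number of members called stayed within 1.5 times of 6 higher and 1 lower under every alternative, with 5 to 6 higher when single arrays were left out. At 30 min the 2 members higher became 1 with no filter, 1 without the intensity trend, 0 with only the compared groups and 0 with the Gapdh ratio as a covariate, and 0 to 4 when single arrays were left out. From 30 to 120 min the 5 members higher became 3 with only the compared groups (3 to 6 without single arrays). The 2 lower became 1 with no filter, quantile normalization, median centring, no trend, only the compared groups or the Gapdh covariate (1 to 2 without single arrays). The causes were not tested.

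Signs turned only in changes that had not passed. Stat3 99099_at at 30 min was at 0.0076 with median centring (-0.090 to 0.015 without single arrays). Socs1 was at -0.25 at 30 min, -0.16 at 120 min and 0.091 between the times with the Gapdh covariate, and without single arrays ranged from -0.058 to 0.18, from -0.062 to 0.18 and from -0.15 to 0.12. Il6ra at 30 min was at 0.0037 with quantile normalization (-0.12 to 0.021 without single arrays), and Lifr ranged from -0.43 to 0.092.

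Same-numbered arrays correlated in their deviations from the group means at -0.172 to 0.23, others at -0.215 to 0.231, and 1 of 9 arrays was closest to one of its own number. With the replicate block, 2, 5 and 5 member probe sets were higher at 30 min, 120 min and between the times, and the calls of Stat3 99099_at (0.54, adjusted p = 0.0585) and Il6ra (-0.60, adjusted p = 0.0704) at 120 min were not made.

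Over all tested probe sets, 28 higher at 30 min became 4 with the Gapdh covariate and 15 without untreated replicate 2, and 0 lower became 46 without NECA 30 min replicate 2. At 120 min, 144 higher became 87 with the covariate and 88 without untreated replicate 2 or NECA 120 min replicate 3. The 121 lower became 64 with the covariate, and 60, 70 and 79 without untreated replicate 1, untreated replicate 2 and NECA 120 min replicate 3. Between the times, 106 higher became 178 without NECA 30 min replicate 2 and 66, 60 and 59 without NECA 120 min replicates 1, 2 and 3. Signals near the offset, as for Socs2 and untreated Socs3, limit the size of a fold.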
